A study of Gallus gallus with 2 samples.

Results

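The genes described here carry chromosomes through mitosis, from the kinases that start it to the proteins that split the cell. They were chosen as a list of 54 gene symbols, and 52 of them name a row in the expression files, out of 23842 genes in all. AURKB and CDCA8, a kinase and a subunit of the chromosomal passenger complex, matched no row by symbol and are not analysed here. RNA was sequenced from explants of the basilar papilla (BP), the hearing epithelium of the chick, taken from male chicks at posthatch day 1. For post-SM6, explants were kept for 48 h in streptomycin (SM), an antibiotic toxic to the hair cells (HCs), and then cultured for 6 h without it. The SM0 explants were taken before exposure and had no HC loss. In each group RNA of 50 BPs was pooled into 1 library after thermolysin had been used to strip other tissue from the epithelium, so there is no replicate check of any difference and no test was run. No explants cultured for the same time without SM were analysed, so SM, time in culture and differences between the pooled chicks cannot be told apart.

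In most cells of a mature epithelium, mitosis genes are silent, and their RNA rises when a cell that has copied its DNA prepares to divide. CDK1 with its cyclins then starts mitosis, kinetochores tie chromosomes to the spindle, and the anaphase-promoting complex ends it by marking cyclins and securin for destruction. In the BP of birds, HCs and supporting cells (SCs) are normally at rest, and some SCs return to the cell cycle after HCs are lost.

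Expression is given as TPM, the share of a gene among all transcripts after division by transcript length, so that levels of different genes can be set side by side. For the log2 change, a pseudocount of 0.1 TPM was added to both values and post-SM6 was divided by SM0, which understates the change of low genes. TPM does not keep the number of reads, and the read counts that the study lists in its supplement were not used here. The depth behind each value is therefore not given, and values below 1 TPM are in steps of 0.01. The 7 HC markers examined summed to 134 TPM at post-SM6 and 2336 TPM at SM0, and none was at 0 at post-SM6, although its label names only SCs. Of the 8 SC markers, 4 were higher and 2 were lower by at least 1.3-fold, with a median log2 change of 0.30. Of all genes with TPM above 0 in either library, 25.2% were higher and 27.7% lower by that fold. SOX2, whose protein the study stained, was lower, with 77.2 TPM at post-SM6 and 145.6 TPM at SM0. LFNG had the largest increase, with 59.6 TPM at post-SM6 and 18.9 TPM at SM0. The 8 SC markers summed to 3614 TPM at post-SM6 and 4622 TPM at SM0, but TECTB made up most of both sums. Without TECTB the sums were 812 TPM at post-SM6 and 673 TPM at SM0. In bulk RNA, fewer cells of a type and less RNA per cell cannot be told apart.

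Nearly all of the listed mitosis and spindle genes were higher at post-SM6. The list was chosen with earlier results of these data known, so its comparison with all genes is a description only. Of the 52 genes, 50 were higher by at least 1.3-fold, the fold criterion of the study, while 25.2% of the 18552 genes with TPM above 0 in either library were. A single member, KIF18A, was lower by at least 1.3-fold, against 27.7% of all genes. Increases of at least 4-fold were found in 33 members and in 2.93% of all genes. The median log2 change was 2.35 over the members, 0.58 over 71 further mitosis genes described below and -0.05 over all genes above 0. Summed over the 52 genes, expression was 493 TPM at post-SM6 and 105 TPM at SM0, a ratio of 4.70.

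The increase was larger for members that were lower at SM0, with median log2 changes of 3.63 under 0.5 TPM and 1.22 at 3 TPM and over. The SM0 value enters both quantities, so this is a description only. All 52 members had at least 1 TPM at post-SM6, but only 24 had it at SM0, so 28 reached that level at post-SM6 alone. Of the 18552 genes above 0 in either library, 12729 had at least 1 TPM at post-SM6 and 12699 at SM0. Of these 18552 genes, 622 had it at post-SM6 alone. Levels of at least 10 TPM were found for 20 members at post-SM6 and for 2 at SM0. All genes were not counted at that level, so these 2 counts have no background and are a description only. Among the members under 0.5 TPM at SM0, 19 of 19 were higher by at least 1.3-fold, against 36.5% of all genes of that level. From 0.5 to under 1 TPM it was 9 of 9 members, against 32.8% of all genes, and from 1 to under 3 TPM it was 11 of 12, against 35.0%. At 3 TPM and over it was 11 of 12, against 18.1%. Over the 24 members with at least 1 TPM at SM0, 22 were higher by at least 1.3-fold and 8 by at least 4-fold, against 20.4% and 1.15% of all 12699 genes of that level, and the median log2 change was 1.75.

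**Figure D1:**
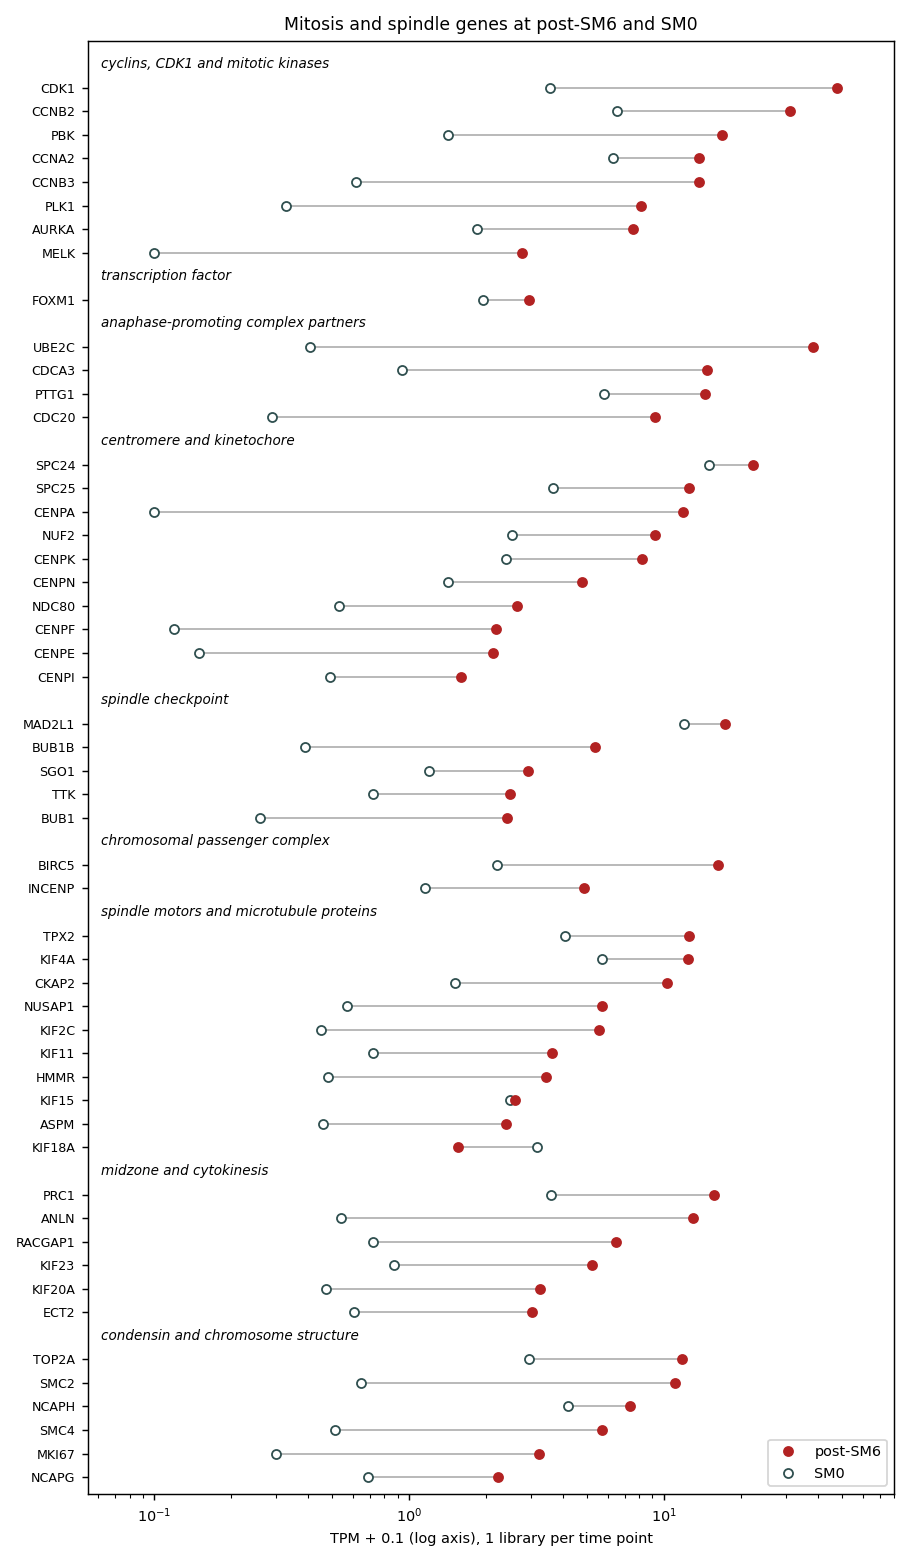
TPM + 0.1 on a log axis for the 52 mitosis and spindle genes, grouped by role, with a filled point for post-SM6 and an open point for SM0, each from 1 library. The filled point lies to the right of the open one for all genes but KIF18A, and MELK and CENPA stand at the left end because they are listed at 0 at SM0.

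CDK1 (gene ID 396252), the kinase that drives entry into mitosis, was the most abundant member at post-SM6, with 47.7 TPM against 3.46 TPM at SM0, a log2 change of 3.75. Its partners were also higher, but from different starting levels. CCNB2, a B-type cyclin, had 31.2 TPM at post-SM6 and 6.44 TPM at SM0, a log2 change of 2.26. CCNB3, another B-type cyclin, had 13.6 TPM at post-SM6 and only 0.52 TPM at SM0, a log2 change of 4.46. CCNA2, the cyclin that acts from DNA replication to early mitosis, had nearly the same level as CCNB3 at post-SM6 (13.6 TPM) but 6.21 TPM at SM0, and its log2 change of 1.12 was the smallest of the 8 genes of this group. The row named CCNB2 (gene ID 415400) is called CCNB1 in the RefSeq table of the genome build GRCg7b, with CCNB2 as a synonym.

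The other kinases of the group were each below 2 TPM at SM0. PLK1, which acts at centrosomes, kinetochores and the cleavage site, had 7.99 TPM at post-SM6 and 0.23 TPM at SM0, a log2 change of 4.62. PBK, a kinase of mitotic cells, had 16.8 TPM at post-SM6 and 1.32 TPM at SM0, a log2 change of 3.57. AURKA, the centrosome and spindle kinase, had 7.47 TPM at post-SM6 and 1.75 TPM at SM0, a log2 change of 2.03. The RefSeq table gives the AURKA row (gene ID 428167) the symbol AURKB. In GRCg7b this row overlaps CSTF1, and its nearest other protein-coding neighbour is FAM210B. Which aurora kinase it measures was not settled here. MELK, a kinase found in dividing cells, had 2.67 TPM at post-SM6 and is listed at 0 at SM0, so no fold is given. FOXM1, the transcription factor that switches on many genes of late cell cycle, was among the members that differed least, with 2.86 TPM at post-SM6 and 1.84 TPM at SM0, a log2 change of 0.61.

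Among genes grouped with the anaphase-promoting complex, as its partners or otherwise, 4 of 4 were higher by at least 1.3-fold. UBE2C (gene ID 100859413), the enzyme that brings ubiquitin to that complex, had 38.1 TPM at post-SM6 and 0.31 TPM at SM0. Its log2 change of 6.54 was the largest of the 50 members above 0 at SM0, and ranked 5 among the 13321 genes with at least 1 TPM in either library. No other gene under 0.5 TPM at SM0 reached the level of UBE2C at post-SM6. CDC20, which activates the complex at anaphase, had 9.08 TPM at post-SM6 and 0.19 TPM at SM0, a log2 change of 4.98, and ranked 17. CDCA3, a factor that helps degrade the mitotic inhibitor WEE1, had 14.6 TPM at post-SM6 and 0.84 TPM at SM0, a log2 change of 3.97. PTTG1 (securin), which holds separase inactive until anaphase, differed less, with 14.3 TPM at post-SM6 and 5.69 TPM at SM0, a log2 change of 1.32. In the RefSeq table the UBE2C row is called UBE2U and the PTTG1 row PTTG2. The PTTG1 row lies next to SLU7 in GRCg7b, and which gene each of these rows measures was not settled here. Of the 100 largest log2 changes among the 13321 genes, 18 belonged to members, which made up 52 of these genes. However, 28 of the members, and 622 of the 13321 genes, had at least 1 TPM at post-SM6 alone. They were ranked only through the library where they are high, so these ranks and the count are a description only. All of these ranks depend on the pseudocount where genes were low at SM0. When the pseudocount was 1, members higher by at least 4-fold numbered 18 in place of 33, and the share of all genes at that setting was not counted.

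All 10 centromere and kinetochore genes were higher by at least 1.3-fold. CENPA (gene ID 100113359), the histone H3 variant that marks centromeres, had 11.7 TPM at post-SM6 and is listed at 0 at SM0. The large kinetochore proteins CENPF and CENPE had 2.09 and 2.04 TPM at post-SM6 and 0.02 and 0.05 TPM at SM0, with log2 changes of 4.19 and 3.83. Their SM0 values are a few steps of 0.01 TPM above 0, so the size of these changes is poorly set. Smaller changes were found for CENPK, CENPN and CENPI of the inner kinetochore, which stays on centromeres through the cell cycle. CENPK had 8.10 TPM at post-SM6 and 2.29 TPM at SM0, CENPN had 4.65 TPM at post-SM6 and 1.32 TPM at SM0, and CENPI had 1.49 TPM at post-SM6 and 0.39 TPM at SM0. Their log2 changes lay between 1.70 and 1.78.

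The NDC80 complex, which grips microtubule ends, is built from 4 proteins in equal number, but their RNA levels were unequal in both libraries. SPC24 had 22.1 TPM at post-SM6 and 14.8 TPM at SM0, a log2 change of 0.57, and was the most abundant member at SM0. SPC25 had 12.4 TPM at post-SM6 and 3.57 TPM at SM0, and NUF2 had 9.11 TPM at post-SM6 and 2.42 TPM at SM0, with log2 changes of 1.77 and 1.87. NDC80 itself had 2.54 TPM at post-SM6 and 0.43 TPM at SM0, a log2 change of 2.32. The lower a subunit was at SM0, the larger was its change. The ratio of the highest to the lowest subunit was 8.70 at post-SM6 and 34.5 at SM0. The SM0 value enters both level and change, and the SM0 ratio rests on the 0.43 TPM of NDC80, so this is a description only. The gene ID of the SPC24 row matched no entry of the RefSeq table.

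**Figure D2:**
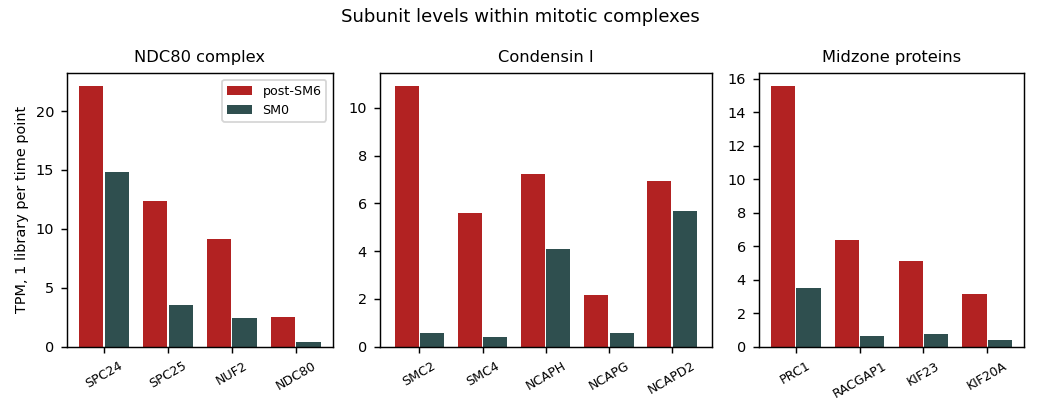
TPM of subunits at post-SM6 (left bar) and SM0 (right bar), 1 library each, for the NDC80 complex, condensin I and proteins of the spindle midzone, on linear axes that start at 0. The high SPC24 bars at both time points and the near-equal NCAPD2 bars (6.94 TPM at post-SM6 and 5.69 TPM at SM0) stand beside subunits with larger ratios, from the 7.23 TPM at post-SM6 and 4.09 TPM at SM0 of NCAPH to the 10.9 TPM at post-SM6 and 0.55 TPM at SM0 of SMC2.

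All 5 genes grouped with the spindle checkpoint, which delays anaphase until every kinetochore is attached, were higher by at least 1.3-fold, but unequally. The kinases BUB1 and TTK had 2.31 and 2.38 TPM at post-SM6 and 0.16 and 0.62 TPM at SM0, with log2 changes of 3.21 and 1.78. BUB1B, the checkpoint protein BUBR1, had 5.24 TPM at post-SM6 and 0.29 TPM at SM0, a log2 change of 3.78. MAD2L1, the protein that locks onto CDC20, had 17.1 TPM at post-SM6 and already 11.9 TPM at SM0, a log2 change of only 0.52. SGO1, the guardian of cohesin at centromeres that was placed in this group, had 2.83 TPM at post-SM6 and 1.10 TPM at SM0, a log2 change of 1.29. In the chromosomal passenger complex, which corrects faulty attachments, BIRC5 (survivin) had 16.2 TPM at post-SM6 and 2.12 TPM at SM0, and INCENP had 4.77 TPM at post-SM6 and 1.05 TPM at SM0. Their log2 changes were 2.87 and 2.08.

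Spindle motors and microtubule proteins held both genes that were not higher by 1.3-fold. KIF18A, a motor that limits the length of kinetochore microtubules, was lower, with 1.46 TPM at post-SM6 and 3.08 TPM at SM0, a log2 change of -1.03. KIF15, which helps keep the poles of the spindle apart, had 2.49 TPM at post-SM6 and 2.39 TPM at SM0, a log2 change of 0.06. KIF11, the main motor for pole separation, was higher, with 3.52 TPM at post-SM6 and 0.62 TPM at SM0, a log2 change of 2.33. KIF2C, which takes microtubules apart at centromeres, had 5.47 TPM at post-SM6 and 0.35 TPM at SM0, a log2 change of 3.63 and the largest of the group. KIF4A, a motor on chromosome arms, had 12.3 TPM at post-SM6 and 5.59 TPM at SM0, a log2 change of 1.13. Its row is called KIF4B in the RefSeq table and lies next to PDZD11 in GRCg7b, and which gene it measures was not settled here. Of the proteins without motor activity, TPX2, which activates AURKA on the spindle, had 12.4 TPM at post-SM6 and 3.98 TPM at SM0. NUSAP1, CKAP2, HMMR and ASPM, which bind spindle microtubules or their poles, ran from 2.29 to 10.2 TPM at post-SM6 and from 0.36 to 1.41 TPM at SM0, with log2 changes of 3.33, 2.77, 2.85 and 2.38. The group as a whole had 8 of 10 genes higher by at least 1.3-fold.

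For the spindle midzone and cytokinesis, all 6 genes were higher by at least 4-fold on the log2 scale used. ANLN (anillin), the scaffold of the contractile ring, had 12.8 TPM at post-SM6 and 0.44 TPM at SM0, a log2 change of 4.58. PRC1, which bundles midzone microtubules, was the most abundant, with 15.6 TPM at post-SM6 and 3.49 TPM at SM0, a log2 change of 2.12. RACGAP1 and KIF23 together form centralspindlin. They had similar levels to each other at both time points, with 6.35 and 5.13 TPM at post-SM6 and 0.62 and 0.77 TPM at SM0, and log2 changes of 3.16 and 2.59. ECT2, the exchange factor that centralspindlin recruits to switch on RhoA, had 2.93 TPM at post-SM6 and 0.51 TPM at SM0. KIF20A, a midzone motor, had 3.15 TPM at post-SM6 and 0.37 TPM at SM0, and their log2 changes were 2.31 and 2.79.

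All 6 members of chromosome structure were higher by at least 1.3-fold, and 3 of them by at least 4-fold. The condensin ATPases SMC2 and SMC4 had 10.9 and 5.61 TPM at post-SM6 and 0.55 and 0.41 TPM at SM0, with log2 changes of 4.08 and 3.48. Of the subunits that belong to condensin I alone, NCAPG had 2.14 TPM at post-SM6 and 0.59 TPM at SM0, and NCAPH had 7.23 TPM at post-SM6 and 4.09 TPM at SM0, with log2 changes of 1.70 and 0.81. NCAPD2, a condensin I subunit outside the list, was within 1.3-fold, with a log2 change of 0.28. TOP2A, which untangles sister chromatids, had 11.6 TPM at post-SM6 and 2.84 TPM at SM0, a log2 change of 1.99. MKI67, the Ki-67 protein that coats mitotic chromosomes, had 3.13 TPM at post-SM6 and 0.20 TPM at SM0, a log2 change of 3.43.

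At SM0, 6 members had at least 5 TPM, namely SPC24, MAD2L1, CCNB2, CCNA2, PTTG1 and KIF4A, and all of these but CCNB2 had log2 changes from 0.52 to 1.32. Here too the SM0 value enters the change, so this is a description only. On the log2 scale the standard deviation of levels over the 52 genes was 1.23 at post-SM6 and 1.74 at SM0.

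**Figure D3:**
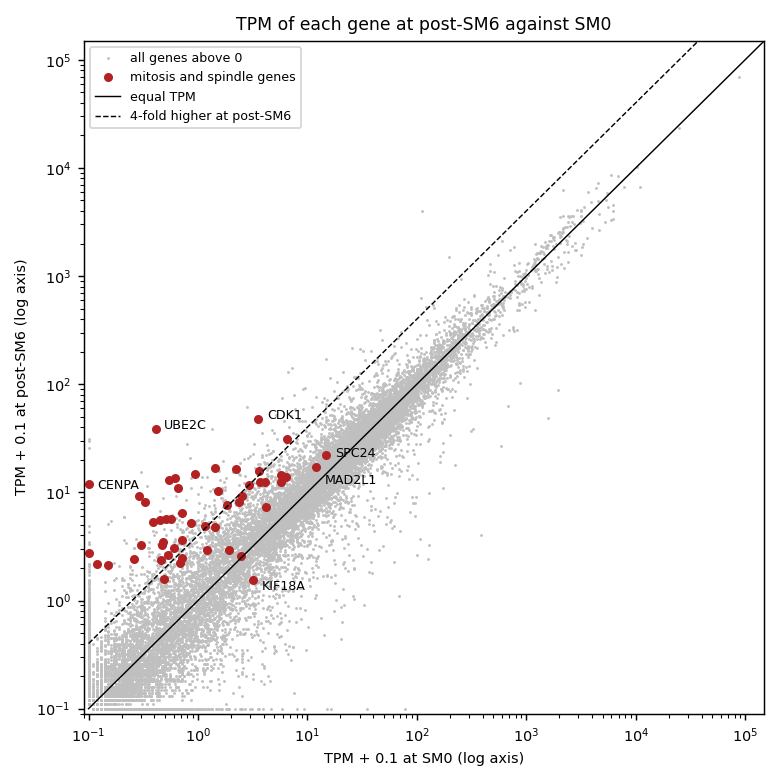
TPM + 0.1 at post-SM6 against TPM + 0.1 at SM0, both on log axes, for the 18552 genes above 0 in either library (grey) and the 52 mitosis and spindle genes (red). The members lie above the line of equal TPM except KIF18A, and 33 of them lie above the dashed line of a 4-fold increase.

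Beyond the list, 84 further symbols of mitosis genes were looked up, and 71 rows were found. Of these, 46 were higher and 3 were lower by at least 1.3-fold, beside 25.2% and 27.7% of all genes above 0, with a median log2 change of 0.58. At a fold of 2 in place of 1.3, the number higher was 29, beside 10.3% of all genes above 0. In this wider set the genes of condensin and chromosome structure had 3 of 7 higher by at least 1.3-fold, and the other 4 were within that fold. The 5 largest increases, among genes with at least 1 TPM in either library, were those of NEK2, CKS2, KIF18B, HJURP and NCAPG2. All 5 were under 0.5 TPM at SM0 and reached 1 TPM at post-SM6 alone. The size and order of these increases therefore depend on the pseudocount. NEK2, a kinase that parts the centrosomes, had 5.34 TPM at post-SM6 and 0.06 TPM at SM0, and CKS2, a small partner of CDK1, had 8.79 TPM at post-SM6 and 0.38 TPM at SM0. HJURP, which deposits CENPA at centromeres, had 1.45 TPM at post-SM6 and 0.07 TPM at SM0. For KIF18B, a partner of KIF2C at microtubule ends, 2.10 TPM was found at post-SM6 and 0.06 TPM at SM0, and NCAPG2 of condensin II had 1.51 TPM at post-SM6 and 0.08 TPM at SM0. At the other end, SKA3, a kinetochore protein that works with the NDC80 complex, had 4.73 TPM at post-SM6 and 10.4 TPM at SM0, a log2 change of -1.12. MAD1L1, the anchor of MAD2L1, had 8.79 TPM at post-SM6 and 16.3 TPM at SM0, a log2 change of -0.88, and ZWILCH, of the same checkpoint, had 20.4 TPM at post-SM6 and 28.6 TPM at SM0. The next were CKAP5, a microtubule polymerase (34.7 TPM at post-SM6 and 43.3 TPM at SM0), and FAM83D in the row with gene ID 425103 (5.60 TPM at post-SM6 and 7.15 TPM at SM0), both within 1.3-fold.

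UBE2C and CDC20 act on the anaphase-promoting complex, and SGO1 on cohesin. For the anaphase-promoting complex and its interphase activator FZR1, 15 of 15 genes were found, of which 1 was higher and 4 were lower by at least 1.3-fold, beside 25.2% and 27.7% of all genes above 0, with a median log2 change of -0.14. The gene that was higher, CDC26, had 452 TPM at post-SM6 and 345 TPM at SM0. The lowest was ANAPC4, with 3.82 TPM at post-SM6 and 6.56 TPM at SM0, followed by ANAPC2, CDC16, ANAPC5 and CDC23, with log2 changes of -0.68, -0.43, -0.38 and -0.24. FZR1 had 37.2 TPM at post-SM6 and 34.0 TPM at SM0, and ANAPC11, ANAPC13 and ANAPC15 had log2 changes of 0.29, 0.12 and 0.09. The ANAPC11 row is called NPB in the RefSeq table, so which gene it measures is uncertain. Of 8 cohesin genes, which hold sister chromatids together and also shape chromatin in resting cells, none was higher and 1 was lower by at least 1.3-fold, beside the same shares of all genes, with a median log2 change of -0.13. That gene was PDS5B, with 11.8 TPM at post-SM6 and 16.0 TPM at SM0, while RAD21, the subunit that separase cuts, had 66.7 TPM at post-SM6 and 61.8 TPM at SM0. SMC3, WAPL, PDS5A, STAG1, STAG2 and SMC1A had log2 changes from -0.23 to -0.05, and the gene ID of the SMC1A row matched no entry of the RefSeq table.

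MuvB, MYB and E2F proteins switch cell cycle genes on or off. Of 18 such genes, 6 were higher, 1 was lower and 11 were within 1.3-fold, with a median log2 change of 0.07. The number higher lies near the 25.2% of all genes above 0, and 27.7% of all genes were lower. MYBL1 had 3.68 TPM at post-SM6 and 1.08 TPM at SM0, and E2F1, an activator of genes for DNA replication, had 11.0 TPM at post-SM6 and 3.51 TPM at SM0, with log2 changes of 1.68 and 1.62. E2F2 had 0.52 TPM at post-SM6 and is listed at 0 at SM0. E2F8, a repressor, had 2.54 TPM at post-SM6 and 1.00 TPM at SM0, E2F3 had 8.43 TPM at post-SM6 and 5.38 TPM at SM0, and MYBL2, the MYB protein that joins MuvB for late cell cycle genes, had 16.8 TPM at post-SM6 and 12.4 TPM at SM0. The gene that was lower was RBL1, which encodes the pocket protein p107, with 3.12 TPM at post-SM6 and 4.82 TPM at SM0. E2F5, E2F7, RBBP4 and E2F6 had log2 changes from -0.26 to -0.20.

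**Figure D4:**
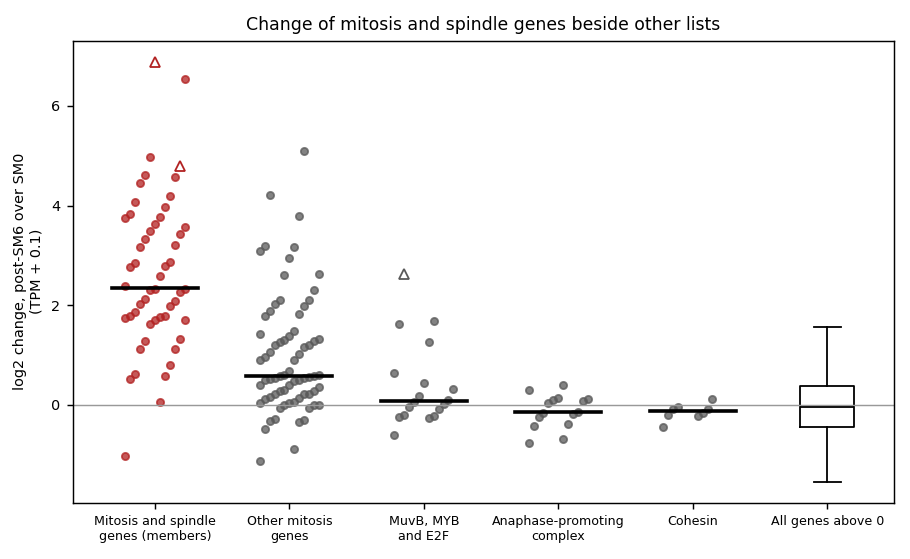
Log2 change of each gene, post-SM6 over SM0, for the 52 members and 4 other lists, with black bars for medians, open triangles for genes listed at 0 at SM0, and a box for all 18552 genes above 0 (quartiles, whiskers at the 5th and 95th percentiles). The median was 2.35 for the members, 0.58 for the other mitosis genes, and 0.07, -0.14 and -0.13 for the MuvB, MYB and E2F factors, the anaphase-promoting complex and cohesin.

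Markers of some other cells that the explants can hold were also higher at post-SM6. All 10 fibroblast markers were higher by at least 1.3-fold, and summed to 430 TPM at post-SM6 and 73.4 TPM at SM0. Of all genes above 0, 25.2% were higher and 27.7% lower by that fold. All 9 leukocyte markers were higher by that fold, with sums of 132 TPM at post-SM6 and 40.6 TPM at SM0. CD74 made up most of both sums, with 91.4 TPM at post-SM6 and 30.5 TPM at SM0, and 5 of the 9 were under 1 TPM at SM0. PTPRC, which defines leukocytes, had 1.22 TPM at post-SM6 and 0.83 TPM at SM0. Of 8 cartilage markers 7 were higher by that fold, with sums of 314 TPM at post-SM6 and 131 TPM at SM0, and COL9A1 was within it. MATN1, which marks cartilage, is counted among the 7 but was near 0 in both (0.08 TPM at post-SM6, listed at 0 at SM0), so its fold rests on the pseudocount. The 6 endothelial markers were mixed, with 2 higher (CDH5 and KDR), 2 lower (PECAM1 and CLDN5) and 2 within 1.3-fold, and summed to 36.0 TPM at post-SM6 and 58.9 TPM at SM0. Of the 8 Schwann cell and neuron markers, 7 were lower by at least 1.3-fold, with a median log2 change of -1.72. They summed to 392 TPM at post-SM6 and 553 TPM at SM0, and without SOX10, which was within 1.3-fold, to 125 TPM at post-SM6 and 342 TPM at SM0. The 3 erythroid markers summed to 8.57 TPM at post-SM6 and 20.9 TPM at SM0. The part of these cell types in the levels of mitosis genes was not tested. The weighted average difference (WAD), the ranking that the study applied to read counts, weights a log2 difference by the level of the gene. Computed on TPM with the threshold of 0.91 for genes higher at post-SM6, it called no member and 0.14% of all genes. CDK1 and UBE2C came nearest with 0.86 and 0.85. Genes lower at post-SM6 were not counted in that share. The study chose its thresholds to cover genes first listed with DESeq2, so the same threshold on TPM is not its criterion. Over its time points, the study reported a cluster of upregulated genes characterized by cell division and the Aurora B pathway. At times other than post-SM6, it also labelled cells that copied DNA in culture. Within the sensory epithelium, labelled cells lay only at the neural edge, and no cell with myosin VIIa was labelled. Label was also seen in the cartilage plate beside the BP, and in hyaline and mesenchymal cells. Which cells hold the RNA of mitosis genes at post-SM6 was not tested.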

How the data were processed

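Per the labels and the methods of the study, the authors removed ribosomal reads with Bowtie2 (2.1.0), aligned the rest to GRCg6a with STAR (2.7.1a) and estimated expression with RSEM (1.3.0). The authors deposited TPM for 23842 genes, which summed to 999999 at post-SM6 and 999997 at SM0. The annotation used is not given in the sources used here beyond NCBI gene IDs. TPM hold no depth and the read counts in the supplement of the study were not used, so no interval was computed.

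Rows were matched by upper-cased symbol. Gene IDs of 51 of 52 members matched RefSeq of GRCg7b, 46 under the same symbol, and its coordinates are not printed. The pseudocount was 0.1. All members were named by role, and 5 genes from each end of the other lists by log2 change among those with at least 1 TPM in either library. WAD used TPM with values under 1 set to 1. The members and lists were chosen with earlier results of these data known. Counting was tested on simulated data, with changes put only into genes whose mean was at least 10 TPM, so the test does not cover genes of low level. DESeq2, which the study used, needs read counts, which were not used here, and was not run. Other pseudocounts, minimums, scalings and folds were tried. Python 3.11.15, numpy 2.4.6, pandas 2.3.3 and matplotlib 3.10.9 were used.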

Additional observations from a re-analysis of the deposited data

How the results depend on the processing

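With 1 library per time point, no replicate could be left out. No paired analysis was possible because each group has 1 sample. Among the members above 0 at SM0, none crossed the 1.3-fold criterion or turned its direction with pseudocounts of 1 or 0.01, after scaling by the median ratio (over genes whose mean was at least 10 TPM), or with TPM rescaled without the 10 most abundant genes. The sizes were less stable. With a pseudocount of 1, 18 members in place of 33 were higher by at least 4-fold, and the median log2 change of the members was 1.60. The share of all genes higher by 4-fold at that setting was not counted. With a minimum of 1 TPM at SM0, which 24 members and 53 other mitosis genes passed, the counts were 22 members higher by at least 1.3-fold, 8 by at least 4-fold and 28 other mitosis genes, and the median of the members was 1.75. With a fold of 2, 29 other mitosis genes were higher. Over all genes, the median log2 change was -0.02 after scaling by the median ratio and -0.07 without the 10 most abundant genes, against -0.05 as deposited.

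Other alternatives were chosen after the data were seen. Without the 9 members that overlap a protein-coding gene in GRCg7b, 41 of 43 were higher by at least 1.3-fold. Without the 6 members to which RefSeq does not give the same symbol it was 44 of 46, and without the pair listed at 0 at SM0 it was 48 of 50. For the summed TPM of markers, post-SM6 over SM0, leaving out TECTB turned the ratio of the SC markers to 1.21 in place of 0.78, and leaving out SOX10 gave 0.37 in place of 0.71 for the Schwann cell and neuron markers.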

Other observations

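In GRCg7b, 9 members overlap a protein-coding gene (CCNB2, AURKA, FOXM1, CDC20, KIF2C, PRC1, KIF20A, SMC2 and SMC4). The counting is not stated to use strand, so reads of such pairs may not be told apart. Of the 9 partners with a row in the files, 8 had a smaller log2 change than the member they overlap. SFXN1, which overlaps KIF20A, had 45.0 TPM at post-SM6 and 46.4 TPM at SM0, and CSTF1, which overlaps AURKA, had 12.1 TPM at post-SM6 and 12.6 TPM at SM0. ELOVL1, which overlaps CDC20, had 91.2 TPM at post-SM6 and 72.5 TPM at SM0. RHNO1 was the exception. It overlaps FOXM1 and encodes a protein of the DNA damage checkpoint, and it had 1.44 TPM at post-SM6 and 0.10 TPM at SM0, a log2 change of 2.94 beside the 0.61 of FOXM1.

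Genes next to members on the chromosome were looked up as well. Of 48 nearest protein-coding neighbours that have a row and are not members, 13 were higher and 10 were lower by at least 1.3-fold, none was higher by at least 4-fold, beside 25.2%, 27.7% and 2.93% of all genes above 0, and the median log2 change was -0.07. NUSAP1, with a log2 change of 3.33, lies beside OIP5, a factor for loading CENPA, which had 24.3 TPM at post-SM6 and 16.9 TPM at SM0. PBK, with 3.57, lies beside ESCO2, a cohesin acetyltransferase, which had 6.80 TPM at post-SM6 and 5.83 TPM at SM0.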
